A study of Homo sapiens with 27 samples.

Results

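The genes JUN, JUNB, ATF3, EGR1, KLF6, MYC and IER2 were followed across 27 libraries that count the 3′ ends of poly(A)+ RNA in human lung cancer cell lines treated with platinum compounds. These 7 early response genes were chosen by name, and each was located by a fixed window and strand of the human genome build hg19. Their windows held 38 of the 233020 regions obtained when the deposited peaks of all libraries were merged by overlap on a strand. JUN, EGR1 and the others had between 3 and 7 such regions each, called ends below. The end with the highest mean level in a window is called the main end of its gene.

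There were 9 groups with 3 libraries each. In H358, whole cells were used after 100 µM cisplatin, 100 µM oxaliplatin or the vehicle DMSO. A549R RNA came from the cytosol of cells given 100 µM cisplatin or DMSO. A549 RNA came from heavy polysomes, the messenger RNA that carries many ribosomes, and from the cytosol, in each case after 100 µM cisplatin or DMSO. The labels describe all 3 lines as non-small cell lung cancer lines, and the series states that sensitive and cisplatin-resistant cells were set against each other, so A549R is taken here as a resistant line related to A549. How long cells were exposed and how A549R was obtained are not stated in the labels. Each line is a single model, so line and any other difference between these cultures cannot be told apart. H358 was sampled as whole cells and A549 and A549R were not, so line and RNA fraction cannot be told apart either.

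Early response genes are switched on within minutes by growth factors, stress or DNA damage, through factors that are already present in the cell, and many of their messenger RNAs carry AU-rich elements that speed their decay. JUN and JUNB encode subunits of the transcription factor AP-1, and ATF3 encodes a stress-induced factor that pairs with JUN proteins. EGR1 and KLF6 encode zinc-finger factors, MYC encodes a factor that drives growth, and IER2 encodes a nuclear protein first described as a growth factor response product. Cisplatin and oxaliplatin both place platinum adducts on DNA. Cisplatin carries ammine and chloride ligands, and oxaliplatin carries a diaminocyclohexane and an oxalate ligand in their place. Neither the age of an RNA nor its rate of decay was measured, so a level here does not separate synthesis from decay. Levels are relative to the other RNA of a library, and a change in the RNA content per cell cannot be told apart from a change in these genes.

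The promoters of JUN, ATF3, KLF6 and EGR1 are shown because the first 3 share a short motif that AP-1 and ATF proteins are known to bind, and EGR1 holds a different one. RefSeq's table for GRCh38.p14 held an entry for 6 of the 7 genes, each covering 250 bases before to 50 bases after the start. Positions in a promoter are counted from 1 at the 5′ end of the printed run. Capitals mark TGACATCA in JUN, ATF3 and KLF6, a variant of the cyclic AMP response element to which AP-1 and ATF proteins bind, GCGGGGGCG in KLF6, the core site of EGR proteins, and the CArG boxes of EGR1, to which the serum response factor binds. The JUN promoter is at chr1:58783998-58784297 on the minus strand, ATF3 at chr1:212565157-212565456 on the plus strand, KLF6 at chr10:3785160-3785459 on the minus strand and EGR1 at chr5:138465229-138465528 on the plus strand.
JUN: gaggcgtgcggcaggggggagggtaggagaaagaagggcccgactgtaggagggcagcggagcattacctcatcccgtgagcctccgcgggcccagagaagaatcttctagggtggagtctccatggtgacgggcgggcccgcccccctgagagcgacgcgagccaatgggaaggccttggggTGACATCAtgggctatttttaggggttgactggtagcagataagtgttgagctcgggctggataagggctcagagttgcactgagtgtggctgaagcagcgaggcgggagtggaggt
ATF3: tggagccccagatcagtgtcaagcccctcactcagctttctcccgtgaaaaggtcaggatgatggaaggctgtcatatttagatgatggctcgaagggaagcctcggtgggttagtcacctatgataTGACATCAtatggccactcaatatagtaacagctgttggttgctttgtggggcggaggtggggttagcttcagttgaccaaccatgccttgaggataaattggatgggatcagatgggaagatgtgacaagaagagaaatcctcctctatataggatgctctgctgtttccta
KLF6: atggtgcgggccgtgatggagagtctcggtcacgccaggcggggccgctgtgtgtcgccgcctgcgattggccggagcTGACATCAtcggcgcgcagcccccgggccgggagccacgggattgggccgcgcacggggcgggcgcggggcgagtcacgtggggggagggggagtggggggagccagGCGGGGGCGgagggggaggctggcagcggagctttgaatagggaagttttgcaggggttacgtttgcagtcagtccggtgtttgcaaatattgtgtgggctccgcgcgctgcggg
EGR1: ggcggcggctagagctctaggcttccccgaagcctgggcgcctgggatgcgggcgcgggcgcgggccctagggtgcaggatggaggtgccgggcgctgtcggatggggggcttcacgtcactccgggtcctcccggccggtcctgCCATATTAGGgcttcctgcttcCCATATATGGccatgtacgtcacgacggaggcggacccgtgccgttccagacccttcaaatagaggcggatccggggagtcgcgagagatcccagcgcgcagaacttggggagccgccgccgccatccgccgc

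TGACATCA stood at position 184 in JUN, 128 in ATF3 and 79 in KLF6, and it was found in 918 of 35116 human promoters of this length (2.61%), read on both strands. EGR1 held CArG boxes at positions 146 and 168, and 1.29% of promoters held that motif, which was searched by name. KLF6 held GCGGGGGCG at position 186, as did 5.07% of promoters. JUNB held TATAAA at position 220, as did 11.5% of promoters, and IER2 held none of the motifs searched, which also included TGACGTCA (1.85%), TGACTCA (4.95%) and TGATGCAA (0.866%). ATF3 has a second entry further downstream, with TATAAA at position 21 and no TGACATCA. These matches describe letters in the windows and no binding was measured. Whether a motif bears on the levels below was not tested, and which ATF3 entry gives the measured ATF3 ends was not determined.

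The libraries held 3024814 to 11997535 reads in listed peaks, with no count under 5 in any list. Of the 27 lists, 11 were short and left out a class of peaks that the 16 long lists hold. A missing peak is therefore called not listed and is never taken as 0 in a level printed here. A count of 5 corresponded to between 0.752 and 3.46 CPM, the count scaled to library depth by TMM factors, which were computed over the peaks present in all 27 libraries. Libraries numbered 3 of A549, A549R and the polysomes had the lowest replicate correlations, and results that rest on them are given with and without them. H358 cisplatin libraries stood apart in their mitochondrial share, 20.1% to 23.6% of kept counts, against 10.1% to 12.8% with oxaliplatin and 8.89% to 9.35% with DMSO. The part of this in the H358 results was tested only by leaving mitochondrial peaks out of the scaling, which changed no call in the genes followed here. Ends of the epithelial genes KRT18, KRT8 and EPCAM were listed in all 27 libraries, and KRT19 was listed in every H358 library but in 16 libraries in all. No end of the leukocyte gene PTPRC was found, while the window of the fibroblast gene COL1A1 held 2 ends.

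The main ends of the 7 genes differed in level and in pattern. JUN, JUNB and IER2 stood well above the listing limit in all libraries, and the main end of ATF3 was under 5 CPM or not listed in every DMSO library.

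**Figure D1:**
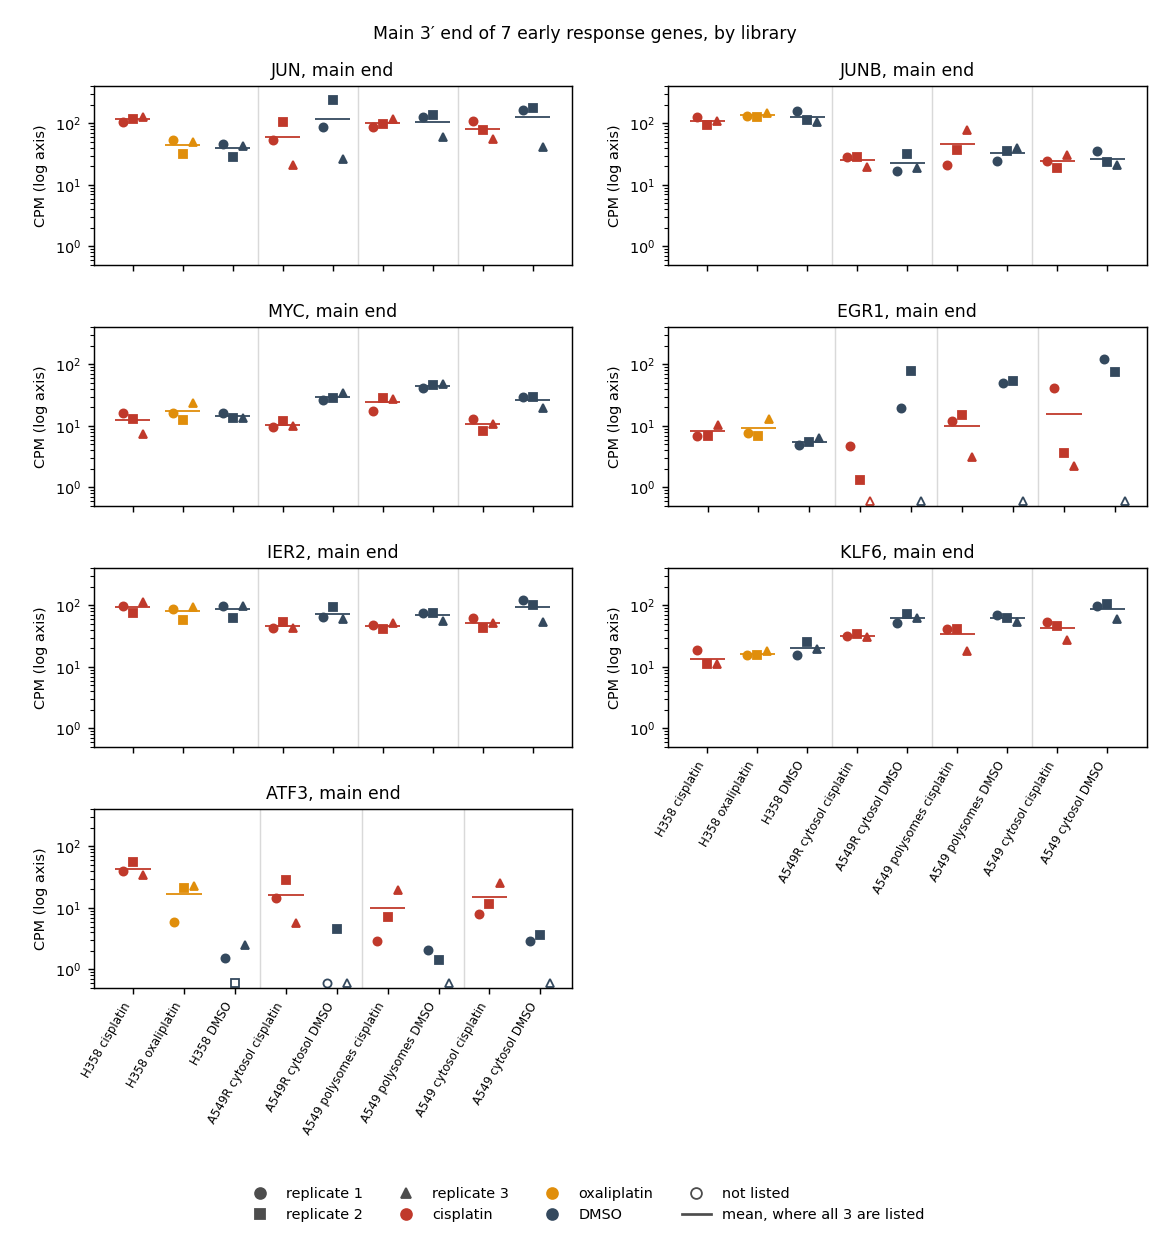
Level of the main end of each gene in every library, in CPM on a log axis; marker shape gives the replicate, colour the treatment, open markers at the bottom a library that does not list the end, and lines the mean where all 3 libraries of a group list it. With cisplatin ATF3 stands above the listed DMSO libraries in H358, A549R, the polysomes and A549, in some libraries by little. JUN is higher with cisplatin than with oxaliplatin or DMSO in H358, and MYC and KLF6 are lower with cisplatin in A549, A549R and the polysomes.

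ATF3 had the largest log2 change among the measured ends of the 7 genes. Its main end, at chr1:212793813-212794123 on the plus strand, held 37.2% of the counts in its window, and an upstream end at chr1:212791458-212791584, 2539 bases before it, held 30.9%. In H358 the upstream end stood at 22.5, 36.0 and 34.0 CPM with cisplatin (71, 52 and 55 counts), at 3.01, 8.37 and 11.1 CPM with oxaliplatin (14, 32 and 57 counts), and at 1.04, 1.19 and 2.83 CPM with DMSO (6, 7 and 9 counts). No library of a group overlapped with those of another, and the DMSO libraries lay within a few counts of the listing limit. The upstream end rose with cisplatin by a log2 change of 4.16 ± 0.47 (SE; edgeR's quasi-likelihood test, Benjamini-Hochberg adjusted p = 1.43e-06, n = 3 against 3). It rose with oxaliplatin by 2.21 ± 0.49 (adjusted p = 0.00908), and this call was lost without oxaliplatin library 3 (1.77, adjusted p = 0.0754). Cisplatin stood above oxaliplatin by 1.95 ± 0.40 on the log2 scale (adjusted p = 0.00147). This end was measured because every H358 library lists it, and the other ATF3 ends were not in that set.

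The ATF3 main end showed the same order of group means in H358. It stood at 40.6, 56.7 and 34.0 CPM with cisplatin, at 6.01, 20.9 and 23.1 CPM with oxaliplatin, and at 1.56 and 2.52 CPM in the DMSO libraries 1 and 3, while DMSO library 2 did not list it. In a wider fit, over every peak averaging 5 or more reads and with an end that is not listed counted as 0, the main end was higher with cisplatin than with DMSO (log2 4.47 ± 0.88, adjusted p = 0.0102, where 5.3% of 47950 peaks were called higher) and with oxaliplatin than with DMSO (2.98 ± 0.85, adjusted p = 0.0177, where 0.142% of peaks were called higher and 46.9% lower). The oxaliplatin lists are short, so this fit reads many unlisted peaks as 0 there. The difference between cisplatin and oxaliplatin at the main end was 1.48 ± 0.72 in that fit and did not pass (adjusted p = 0.125).

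In A549R cytosol the ATF3 main end stood at 14.4, 28.6 and 5.61 CPM with cisplatin, against 4.58 CPM in DMSO library 2, with DMSO libraries 1 and 3 not listing it. On A549 polysomes it stood at 2.91, 7.22 and 19.4 CPM with cisplatin, against 2.11 and 1.45 CPM in DMSO libraries 1 and 2. In A549 cytosol it stood at 8.04, 11.6 and 25.7 CPM with cisplatin, against 2.96 and 3.58 CPM in DMSO libraries 1 and 2. The main end was not listed in DMSO library 3 of the 3 sets, where 5 counts correspond to 3.36 CPM in A549R, 1.46 CPM on polysomes and 1.77 CPM in A549, and each cisplatin library stood above every listed DMSO library of its set. The end was therefore not measured in these fits. In the wider fit its log2 change was 3.25 ± 1.18 in A549R (adjusted p = 0.362), 3.14 ± 1.47 on polysomes (adjusted p = 1) and 2.74 ± 1.11 in A549 (adjusted p = 0.422), and none passed. That fit called 0.399% of its peaks in A549R, 0% on polysomes and 0.57% in A549. Few ends of any gene passed there, so not passing says little about ATF3. With no count minimum the changes of A549R (3.26 ± 0.44, adjusted p = 8.78e-11) and A549 (2.72 ± 0.42, adjusted p = 1.81e-08) passed and that on polysomes did not (adjusted p = 0.649), in fits where 1.95% and 2% of all peaks were called in A549R and A549. The log2 changes hardly differed from the wider fit and the SEs were smaller, so these p-values depend on the set of peaks tested.

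The far upstream ATF3 end at chr1:212788376-212788612, 5511 bases before the main end, showed the same order in H358, with 26.02, 22.8 and 19.2 CPM with cisplatin, 2.58, 6.02 and 11.1 CPM with oxaliplatin, and 1.21 and 1.35 CPM in DMSO libraries 1 and 2. A further end at chr1:212763224-212763779, 30344 bases before the main end, went the other way in its listing. It was listed in 0 of 3 H358 cisplatin libraries and in DMSO libraries 1 and 2 at 6.07 and 9.99 CPM, and no short list holds it, so oxaliplatin and A549 cytosol give no value for it.

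**Figure D2:**
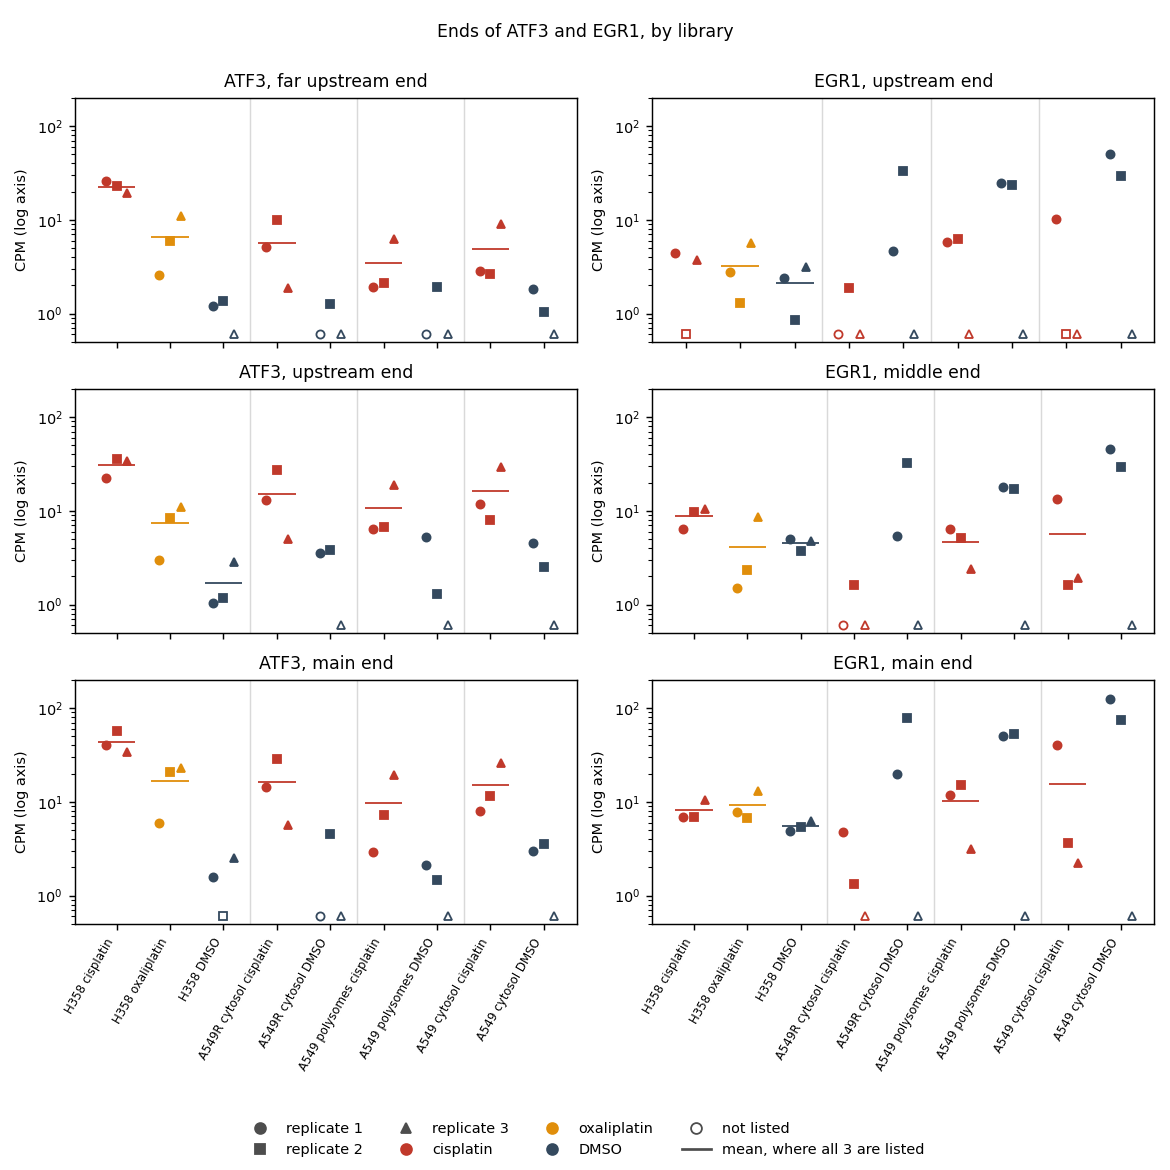
Level of the ATF3 and EGR1 ends that hold at least 15% of the counts of their gene, in every library, in CPM on a log axis; open markers at the bottom are libraries that do not list an end. The 3 ATF3 ends stand above DMSO in every H358 cisplatin library, and the 3 EGR1 ends are not listed in DMSO library 3 of A549R, the polysomes and A549.

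JUN, the founding subunit of AP-1, rose with cisplatin in H358 and did not pass the test in any other treated group. The main JUN end, chr1:59247549-59248178 on the minus strand, held 71.0% of the gene's counts. It stood at 106.9, 117.6 and 128.7 CPM with cisplatin, at 53.0, 32.4 and 49.6 CPM with oxaliplatin, and at 46.0, 28.8 and 43.1 CPM with DMSO. The cisplatin libraries lay above all others, and the oxaliplatin and DMSO libraries overlapped. JUN rose with cisplatin by a log2 change of 1.46 ± 0.26 against DMSO (edgeR, adjusted p = 0.00027, n = 3 against 3) and was 1.31 ± 0.26 above oxaliplatin (adjusted p = 0.00106). With oxaliplatin against DMSO the change was 0.15 ± 0.26, with a 95% interval of -0.38 to 0.68 (adjusted p = 0.777).

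The JUN end 651 bases downstream, at chr1:59246898-59247425 with 22.95% of its counts, moved with the main end. It stood at 63.8, 85.8 and 62.5 CPM with cisplatin, at 31.6, 18.3 and 34.6 CPM with oxaliplatin, and at 30.5, 17.6 and 21.4 CPM with DMSO. It rose by 1.48 ± 0.30 with cisplatin against DMSO (edgeR, adjusted p = 0.000892), and was 1.24 ± 0.29 above oxaliplatin (adjusted p = 0.00473). JUN was the only main end called among the 6 measured in H358 for cisplatin against DMSO, where 26.2% of all 14358 measured peaks were called, and for cisplatin against oxaliplatin, where 19.2% were called. Leaving out each H358 library in turn gave log2 values of 1.28 to 1.62 for JUN against DMSO and ended no call. The call of the main end was lost when all peaks were tested without a count minimum (0.87, adjusted p = 0.0616), and that of the downstream end in the wider fit (0.95, adjusted p = 0.0688) and without a count minimum (0.86, adjusted p = 0.103). A further JUN end 1100 bases downstream of the main end, at chr1:59246449-59246661, held 5.27% of the counts. It stood at 4.12 and 4.15 CPM in H358 cisplatin libraries 1 and 2, at 5.37, 3.40 and 4.08 CPM with oxaliplatin, and at 3.64, 3.56 and 2.52 CPM with DMSO. Cisplatin library 3 did not list it, so it was not measured in H358.

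In A549 and A549R the JUN values of a group spread more than its groups differed. JUN stood at 54.0, 104.0 and 20.9 CPM with cisplatin in A549R cytosol, against 86.9, 243.8 and 26.9 CPM with DMSO. On A549 polysomes it stood at 89.2, 98.2 and 116.2 CPM with cisplatin, against 125.3, 135.4 and 61.0 CPM with DMSO. In A549 cytosol it stood at 110.3, 79.3 and 55.7 CPM with cisplatin, against 163.7, 180.8 and 42.0 CPM with DMSO. Libraries numbered 1 and 2 were lower with cisplatin in all 3 sets, and the DMSO library numbered 3 was the lowest DMSO library of each. The log2 change was -0.94 ± 0.67 in A549R (edgeR, adjusted p = 0.447), 0.00 ± 0.29 on polysomes (adjusted p = 0.999) and -0.60 ± 0.67 in A549 (adjusted p = 0.633). Without libraries 3 of all cytosol groups it was -1.0005 in A549R (adjusted p = 0.0866) and -0.82 in A549 (adjusted p = 0.199), and without libraries 3 of the polysomes it was -0.38 (adjusted p = 0.141). Without a count minimum the A549R change passed (-0.94, adjusted p = 0.0247).

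The JUN response itself was compared between H358 and A549 by an interaction test over the 12 cisplatin and DMSO libraries of H358 whole cells and A549 cytosol, a comparison added after the values had been seen. The log2 response was 2.23 ± 0.54 higher in H358 (edgeR, adjusted p = 0.0209, n = 3 per group), and that of the downstream JUN end was 2.33 ± 0.43 higher (adjusted p = 0.00383). JUN was the only call among the 5 measured main ends, where 5.18% of 12260 peaks were called. The call of the main end was lost without H358 DMSO library 2 (adjusted p = 0.0567), H358 cisplatin library 2 (0.0526), A549 DMSO library 1 (0.0503) or A549 DMSO library 2 (0.0629). In the wider fit neither the main end (1.69, adjusted p = 0.229) nor the downstream end (1.77, adjusted p = 0.0747) passed. Line and RNA fraction differ together in this comparison.

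JUNB, the AP-1 subunit that often opposes JUN, set the lines apart more than the treatments. Its main end at chr19:12903530-12904213 on the plus strand held 98.5% of its counts. In H358 it stood at 128.2, 95.5 and 110.1 CPM with cisplatin, at 133.6, 127.4 and 146.1 CPM with oxaliplatin, and at 161.1, 113.1 and 106.8 CPM with DMSO. In A549R cytosol it stood at 29.0, 28.6 and 19.3 CPM with cisplatin, against 16.6, 31.8 and 18.8 CPM with DMSO. Every H358 library lay above every A549R and A549 library, and within each line the treatments overlapped. JUNB did not pass in any treatment comparison: the log2 change with cisplatin was -0.31 ± 0.23 in H358 (edgeR, adjusted p = 0.343), 0.25 ± 0.30 in A549R (0.668), 0.54 ± 0.45 on polysomes (0.603) and -0.07 ± 0.30 in A549 (0.914). On polysomes the values were 21.3, 36.7 and 79.5 CPM with cisplatin, against 24.9, 35.1 and 39.4 CPM with DMSO, and in A549 cytosol they were 24.7, 18.9 and 30.2 CPM with cisplatin, against 35.7, 23.6 and 21.2 CPM with DMSO. The polysome library 3 with cisplatin was the highest A549 library. The H358 change with cisplatin passed without a count minimum (-0.89, adjusted p = 0.0298), and the difference between cisplatin and oxaliplatin passed with library totals as the scale (-0.72, adjusted p = 0.0336).

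**Figure D3:**
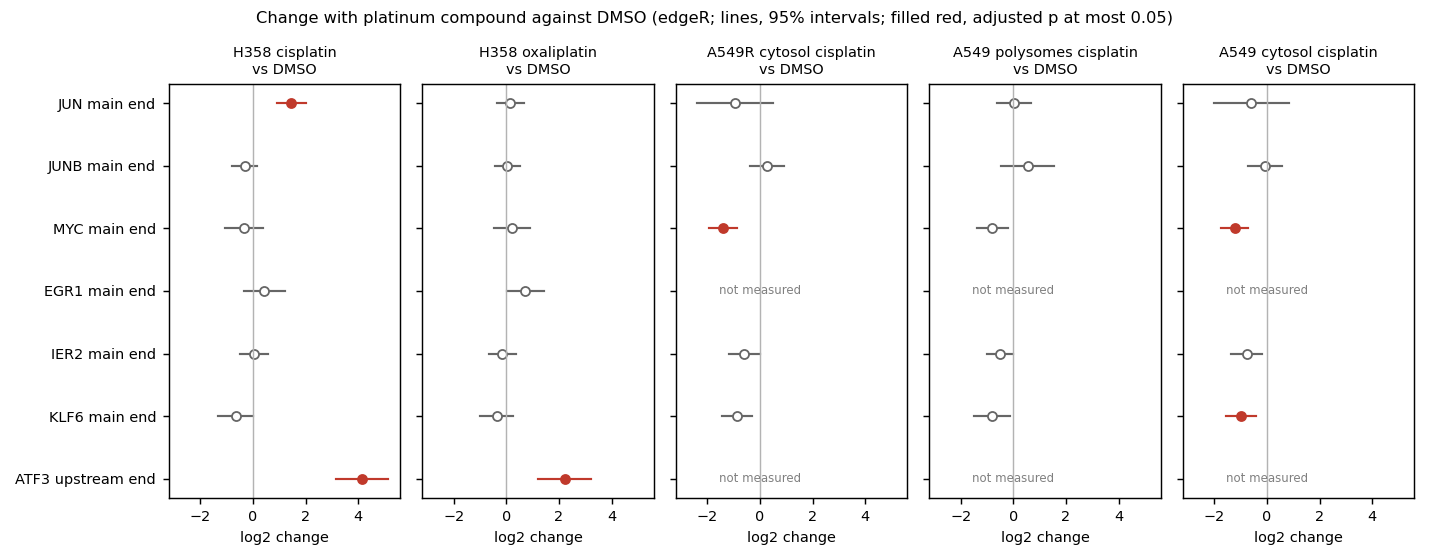
Log2 change of each main end, and of the upstream ATF3 end, with cisplatin or oxaliplatin against DMSO, with 95% intervals from edgeR; filled red points have an adjusted p of at most 0.05. ATF3 is called with both compounds and JUN with cisplatin in H358, MYC is called in A549R and A549 cytosol, and KLF6 in A549 cytosol.

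MYC fell with cisplatin in the cytosol of both A549 lines. The main MYC end, chr8:128753309-128753688 on the plus strand, held 62.7% of the gene's counts. It stood at 9.68, 12.0 and 9.98 CPM with cisplatin in A549R, against 26.01, 28.2 and 34.99 CPM with DMSO. In A549 it stood at 12.9, 8.32 and 10.9 CPM with cisplatin, against 29.3, 29.2 and 19.4 CPM with DMSO. In both lines every cisplatin library was lower than every DMSO library. The log2 change was -1.40 ± 0.25 in A549R (edgeR, adjusted p = 0.0067) and -1.23 ± 0.25 in A549 (adjusted p = 0.00988), n = 3 against 3 in each. The A549 call was lost without cisplatin library 2 (-1.07, adjusted p = 0.0637).

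The MYC end 437 bases upstream, at chr8:128752624-128753251 with 30.5% of its counts, fell in the same samples. It stood at 7.79, 2.67 and 3.74 CPM with cisplatin in A549R, against 26.7, 22.1 and 18.2 CPM with DMSO, and at 5.45, 9.74 and 8.04 CPM with cisplatin in A549, against 27.1, 22.5 and 19.8 CPM with DMSO. Again no cisplatin library reached a DMSO library. The log2 change was -2.16 ± 0.35 in A549R (edgeR, adjusted p = 0.00396) and -1.50 ± 0.33 in A549 (adjusted p = 0.0147), where the call was lost without DMSO library 1 (adjusted p = 0.0508) or in the wider fit (adjusted p = 0.118). An end 2413 bases upstream of the main end, at chr8:128751119-128751275, changed by -1.07 ± 0.30 in A549R (adjusted p = 0.0577) and by -1.59 ± 0.31 in A549 (adjusted p = 0.0094), and 3 settings ended the A549 call: the wider fit (adjusted p = 0.0571), no count minimum (0.306) and leaving out cisplatin library 2 (0.0679), while DESeq2 gave it no adjusted p. The A549R change passed with library totals as the scale (adjusted p = 0.0414), with the replicate block (0.0457) and without libraries 3 of all cytosol groups (0.049). No H358 library listed that end.

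On A549 polysomes MYC was lower with cisplatin by the values but not by the main test, which leaves out the replicate number. The main end stood at 17.5, 28.4 and 27.7 CPM with cisplatin, against 41.1, 46.3 and 48.1 CPM with DMSO, without overlap. The log2 change was -0.81 ± 0.26 (edgeR, adjusted p = 0.185). With the replicate number as a block it was -0.82 (adjusted p = 0.0278). Same-numbered polysome libraries of the 2 treatments deviated together, with correlations of 0.435, 0.449 and 0.526, although the labels state no pairing. The upstream end changed there by -0.97 ± 0.28 (adjusted p = 0.145), and passed with the block (-0.99, adjusted p = 0.0307) and without libraries 3 (-1.08, adjusted p = 0.0368). In H358 the MYC main end did not pass, with 16.5, 13.1 and 7.42 CPM with cisplatin, 16.1, 12.6 and 23.7 CPM with oxaliplatin, and 16.5, 13.7 and 13.5 CPM with DMSO (cisplatin against DMSO -0.32 ± 0.35, adjusted p = 0.526).

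KLF6, a zinc-finger factor described as a tumour suppressor, fell with cisplatin in A549 cytosol at its main end and in H358 and A549 at its distal end. Its main end at chr10:3821137-3821523 on the minus strand held 60.1% of its counts, and a distal end 2397 bases downstream, at chr10:3818740-3819406, held 33.8%. The main end stood at 31.9, 34.2 and 30.9 CPM with cisplatin in A549R, against 51.3, 73.0 and 63.3 CPM with DMSO. In A549 it stood at 54.8, 46.0 and 27.03 CPM with cisplatin, against 97.5, 106.7 and 60.1 CPM with DMSO. In both lines the groups did not overlap. The main end fell in A549 by a log2 change of 0.99 ± 0.26 (edgeR, adjusted p = 0.0356), and in A549R the change was -0.88 ± 0.26 (adjusted p = 0.0731), or -0.87 with the replicate block (adjusted p = 0.0278). DESeq2 called the A549R change as well (-0.89, adjusted p = 0.0357), and it passed without A549 cisplatin library 3 (0.0364) or A549 DMSO library 3 (0.0458). The A549 call was lost without cisplatin library 2 or 3, without DMSO library 1 or 2, or without A549R cisplatin library 1, with adjusted p of 0.0508 to 0.147, and in the wider fit (adjusted p = 0.186). Without libraries 3 of all cytosol groups the change was -0.97 in A549 (adjusted p = 0.00644) and -0.85 in A549R (adjusted p = 0.0107).

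The distal KLF6 end fell in H358 and in A549. In H358 it stood at 14.3, 9.69 and 9.28 CPM with cisplatin, at 17.8, 20.7 and 16.3 CPM with oxaliplatin, and at 22.03, 22.01 and 19.8 CPM with DMSO. The cisplatin libraries lay below all others. Against DMSO the change with cisplatin was -1.02 ± 0.31 (edgeR, adjusted p = 0.0169), a call lost without cisplatin library 2 (adjusted p = 0.0812) or 3 (adjusted p = 0.0694). In A549 cytosol the change was -1.20 ± 0.33 (adjusted p = 0.0432), which 7 of the 12 libraries decided when left out in turn (adjusted p up to 0.157), and the call was lost in the wider fit (adjusted p = 0.246). In A549R it was -1.13 ± 0.35 (adjusted p = 0.0783), or -1.05 with the replicate block (adjusted p = 0.0418). It passed there with DESeq2 (0.0346), without a count minimum (0.024) and without libraries 3 of all cytosol groups (-1.42, adjusted p = 0.00178). The H358 main end was at 18.7, 11.1 and 11.1 CPM with cisplatin, at 15.7, 15.4 and 17.9 CPM with oxaliplatin, and at 16.0, 25.6 and 19.8 CPM with DMSO, and its change with cisplatin of -0.66 ± 0.32 did not pass (adjusted p = 0.136). Under 4 alternatives it did pass: library totals as the scale (-0.98, adjusted p = 0.0362), the wider fit (-1.15, 0.0499), no count minimum (-1.22, 0.0329) and the sum of the window's ends (-0.90, 0.0197). On polysomes the main end stood at 41.4, 42.1 and 18.4 CPM with cisplatin, against 70.9, 62.4 and 54.2 CPM with DMSO (-0.82 ± 0.31, adjusted p = 0.251, or -0.88 and 0.0377 with the replicate block).

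Main ends of MYC and KLF6 were 2 of the 5 called in A549, both lower, where 7.23% of the 16439 measured peaks were called and 3.94% were called lower. MYC was 1 of the 5 called in A549R, where 4.54% were called and 2.1% lower. On polysomes 0 of 5 were called by edgeR, which called 0.704% of 21585 peaks, and 3 had an unadjusted p under 0.05. DESeq2 called 0 of 5 and 3.38% of the peaks. With the replicate block 2 of the 5, MYC and KLF6, were called. The share of all peaks called with the block was not computed, so these 2 calls have no share to be set against. The median log2 change of the 5 measured main ends was -0.78 in A549, -0.88 in A549R and -0.51 on polysomes, against medians of 0.01, 0.02 and -0.01 over all measured peaks. ATF3 and EGR1 are not among the 5, because not every library lists their main ends. In the wider fit, in the same order, ATF3 changed by 2.74, 3.25 and 3.14 and EGR1 by -2.06, -3.90 and -1.66, and none passed. That fit called 0.57%, 0.399% and 0% of its peaks, again in the same order. In H358 the median of the 6 measured, which leave out ATF3, was -0.14 with cisplatin and 0.10 with oxaliplatin. With oxaliplatin 0 of 6 main ends were called by edgeR and 0 by DESeq2, and 1 had an unadjusted p under 0.05. Of all measured peaks, edgeR called 5.32% and DESeq2 6.3%.

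EGR1, the zinc-finger factor with CArG boxes in its promoter, varied widely between libraries of a group in A549 and A549R. The main EGR1 end, chr5:137804538-137805062 on the plus strand, held 55.4% of the gene's counts. In A549R cytosol it stood at 4.72 and 1.34 CPM in cisplatin libraries 1 and 2, against 19.7 and 77.9 CPM in DMSO libraries 1 and 2. On polysomes it stood at 12.0, 15.2 and 3.17 CPM with cisplatin, against 50.5 and 53.2 CPM in DMSO libraries 1 and 2. In A549 cytosol it stood at 40.8, 3.65 and 2.25 CPM with cisplatin, against 123.9 and 74.7 CPM in DMSO libraries 1 and 2. In each of the 6 same-numbered pairs in which both libraries list the end, cisplatin was lower. Cisplatin library 3 of A549R and DMSO library 3 of all 3 sets did not list it, although 5 counts correspond to at most 3.36 CPM in those libraries. The libraries numbered 3 went the other way in their listing: in A549 cytosol and on polysomes cisplatin library 3 lists EGR1 and its DMSO partner does not. EGR1 was therefore not measured in these fits. In the wider fit, its log2 change was -3.90 ± 1.93 in A549R (edgeR, adjusted p = 0.598), -1.66 ± 1.80 on polysomes (1) and -2.06 ± 1.67 in A549 (1), and none passed. As given for ATF3, that fit called 0.399% of its peaks in A549R, 0% on polysomes and 0.57% in A549, so not passing says little about EGR1. With no count minimum it passed in A549R (-3.89 ± 0.36, adjusted p = 1.49e-24) and A549 (-2.09 ± 0.31, adjusted p = 3.78e-09) and not on polysomes (adjusted p = 0.754). There 1.95% and 2% of all peaks were called in A549R and A549. The log2 changes hardly differed from the wider fit and the SEs were much smaller, so these p-values depend on the set of peaks tested. Both fits count the libraries that do not list EGR1 as 0.

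In H358 the EGR1 main end was low and its libraries were close together, at 6.98, 6.92 and 10.5 CPM with cisplatin, 7.73, 6.80 and 13.0 CPM with oxaliplatin, and 4.86, 5.42 and 6.30 CPM with DMSO. Every treated library lay above every DMSO library, but neither change passed, at 0.43 ± 0.37 with cisplatin (edgeR, adjusted p = 0.415) and 0.71 ± 0.34 with oxaliplatin (adjusted p = 0.231). The highest H358 library, at 13.0 CPM, was below both listed A549R DMSO libraries.

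EGR1 had further ends 616 bases before the main end, at chr5:137803978-137804446 with 22.5% of its counts, and 1174 bases before it, at chr5:137803650-137803888 with 21.7%. In H358 the middle end stood at 6.35, 9.69 and 10.5 CPM with cisplatin, at 1.503, 2.35 and 8.55 CPM with oxaliplatin, and at 5.03, 3.72 and 4.72 CPM with DMSO. Every cisplatin library lay above every DMSO library, and oxaliplatin library 3 stood apart from the other oxaliplatin libraries. The change with cisplatin was 0.81 ± 0.48 (edgeR, adjusted p = 0.22) and that with oxaliplatin -0.12 ± 0.46 (adjusted p = 0.915). Cisplatin minus oxaliplatin was 0.93 ± 0.48 (adjusted p = 0.185), which passed without oxaliplatin library 3 (2.10, adjusted p = 0.00353). In A549R the middle end was listed at 1.60 CPM in cisplatin library 2 alone, against 5.39 and 32.6 CPM in DMSO libraries 1 and 2. In A549 cytosol it stood at 13.5, 1.62 and 1.93 CPM with cisplatin, against 46.2 and 29.7 CPM in DMSO libraries 1 and 2. The upstream end was listed in 18 of the 27 libraries and in none of the libraries numbered 3 of A549, A549R and the polysomes.

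The main end of IER2 did not pass in any treatment comparison of the measured peaks. This end, at chr19:13265212-13265775 on the plus strand, held 80.6% of its counts. In H358 it stood at 99.0, 75.4 and 112.6 CPM with cisplatin, 88.5, 58.6 and 92.9 CPM with oxaliplatin, and 97.8, 62.0 and 98.9 CPM with DMSO, with library 2 the lowest of each group. In A549R it stood at 43.0, 52.9 and 43.3 CPM with cisplatin, against 64.0, 95.9 and 60.6 CPM with DMSO, without overlap. In A549 it stood at 63.2, 42.6 and 52.1 CPM with cisplatin, against 123.9, 102.7 and 54.8 CPM with DMSO, where DMSO library 3 lay among the cisplatin libraries. On polysomes it stood at 47.8, 40.9 and 51.2 CPM with cisplatin, against 76.9, 75.9 and 56.9 CPM with DMSO, without overlap. The log2 changes with cisplatin were 0.04 ± 0.26 in H358 (edgeR, adjusted p = 0.934), -0.60 ± 0.28 in A549R (0.226), -0.51 ± 0.21 on polysomes (0.296) and -0.78 ± 0.28 in A549 (0.102). The A549 change passed without DMSO library 3 (-1.05, adjusted p = 0.023), and without libraries 3 of all cytosol groups it was -1.06 (adjusted p = 0.012). The polysome change passed without libraries 3 of both groups (-0.70, adjusted p = 0.0266).

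An IER2 end 1200 bases upstream, at chr19:13264177-13264575, held 18.9% of the counts. Its H358 levels were 24.4, 15.9 and 23.5 CPM with cisplatin, 15.9, 10.98 and 13.2 CPM with oxaliplatin, and 15.6, 11.3 and 15.4 CPM with DMSO. The cisplatin libraries lay above all others, although cisplatin library 2 did so by less than 1 CPM. Neither the change against DMSO (0.49 ± 0.31, edgeR, adjusted p = 0.247) nor the difference from oxaliplatin (0.61 ± 0.31, adjusted p = 0.173) passed. In A549 it stood at 16.4, 10.5 and 14.5 CPM with cisplatin, against 44.1, 27.8 and 12.7 CPM with DMSO, a change of -0.99 ± 0.39 (adjusted p = 0.132) that passed without DMSO library 3 (-1.33, adjusted p = 0.0332) and without libraries 3 of all cytosol groups (-1.39, adjusted p = 0.00874). On polysomes its change was -0.72 ± 0.36 (adjusted p = 0.375) and passed without libraries 3 (-1.16, adjusted p = 0.0314). In A549R the change was -0.64 ± 0.39 (adjusted p = 0.366).

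At matched doses of 100 µM in H358, cisplatin and oxaliplatin, the 1 pair of compounds in the series, differed in JUN and in the upstream ATF3 end, both higher with cisplatin, as given above. The other main ends did not pass, and their 95% intervals of the log2 difference, cisplatin minus oxaliplatin, were -0.83 to 0.13 for JUNB, -1.26 to 0.18 for MYC, -1.02 to 0.47 for EGR1, -0.35 to 0.72 for IER2 and -0.95 to 0.39 for KLF6. These intervals reach a change of 1 on the log2 scale for MYC and EGR1, so differences of that size are not shown to be absent there. The distal KLF6 end was 0.74 ± 0.31 lower with cisplatin than with oxaliplatin and did not pass (edgeR, adjusted p = 0.0955), but it did with library totals as the scale (-1.105, adjusted p = 0.0169). Both compounds are compared with the same DMSO libraries, so their changes against DMSO are not independent. The oxaliplatin lists are short and the other H358 lists are long. In the wider fit, ends that every library lists also took other values, and whether list length is the reason was not tested. For oxaliplatin against DMSO, KLF6 was -0.37 among the measured peaks and -1.06 in the wider fit (adjusted p = 0.0284), and IER2 became -0.84 (adjusted p = 0.0498).

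A549R and A549 were compared in the same treatment and in their response. None of the 5 measured main ends was called in A549R against A549 by edgeR or DESeq2, and 0 had an unadjusted p under 0.05 with either treatment. Of 16439 peaks, edgeR called 2.1% with DMSO and 1.64% with cisplatin, and DESeq2 called 4.06% and 3.15%. The largest difference was in KLF6, 0.51 ± 0.26 lower on the log2 scale in A549R than in A549 with DMSO (edgeR, adjusted p = 0.358), and it passed without libraries 3 of all cytosol groups (-0.73, adjusted p = 0.0227). The response to cisplatin was not called as different between the lines in any of the 16439 peaks, by edgeR or DESeq2, although 307 had an unadjusted p under 0.05, and the response of MYC differed by -0.17 ± 0.35 with a 95% interval of -0.92 to 0.57. For KLF6 that difference was 0.11 ± 0.37 with an interval of -0.68 to 0.90.

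MYC was the only one of the 5 measured genes with a called difference between heavy polysomes and cytosol, where 39.7% of 17308 peaks were called with DMSO and 43.3% with cisplatin. Its main end was 0.67 ± 0.24 higher on polysomes with DMSO (edgeR, adjusted p = 0.0412) and 1.04 ± 0.26 higher with cisplatin (adjusted p = 0.00547). The DMSO call was lost without any single DMSO library of either fraction or without polysome cisplatin library 2, with adjusted p of 0.052 to 0.144, without polysome libraries 3 (0.59, adjusted p = 0.0758), in the wider fit (0.66, adjusted p = 0.113), without a count minimum (adjusted p = 0.445), and with the sum of the window's ends (0.24, adjusted p = 0.361). The call with cisplatin was lost without a count minimum (1.196, adjusted p = 0.275). The upstream MYC end did not show it, with -0.28 ± 0.25 with DMSO (adjusted p = 0.398) and 0.19 ± 0.27 with cisplatin (adjusted p = 0.586). KLF6 was 0.62 ± 0.32 lower on polysomes with DMSO (adjusted p = 0.134) and 0.51 ± 0.32 lower with cisplatin (adjusted p = 0.219), and both passed with the replicate block (-0.58, adjusted p = 0.0169, and -0.52, adjusted p = 0.0313). With DMSO, IER2 passed without A549 cytosol DMSO library 3 (-0.82, adjusted p = 0.0119), and with cisplatin JUNB passed without polysome cisplatin library 1 (1.16, adjusted p = 0.026). The response to cisplatin on polysomes was not called as different from that in cytosol in any of the 17308 peaks by edgeR or DESeq2, 208 of which had an unadjusted p under 0.05.

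The ends of a gene can shift against each other without a change in their sum. MYC's main end took 68.4% ± 1.79 of the counts at its main and upstream ends on DMSO polysomes, against 52.7% ± 3.53 in DMSO cytosol of A549 (SD, n = 3 each), without overlap. With cisplatin it took 70.5% ± 4.59 on polysomes, against 58.0% ± 12.1 in cytosol. An exact permutation test, two-sided, of 3 libraries against 3 cannot go below 0.1, and over the 40 shares tested the smallest adjusted p was 0.444, so no share passed. KLF6's main end took 54.9% ± 1.72 with cisplatin, 47.3% ± 4.78 with oxaliplatin and 48.6% ± 5.99 with DMSO in H358 (SD, n = 3 each), and the means of the A549R and A549 groups ran from 66.3% to 72.6%. JUN's main end likewise had means of 61.8% to 63.0% in the H358 groups and 76.3% to 82.3% in the others. In H358 the main end of IER2 took 81.8% ± 1.41 with cisplatin, against 85.8% ± 1.07 with DMSO (SD, n = 3 each), without overlap and with an exact p of 0.1, the smallest that this design allows.

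**Figure D4:**
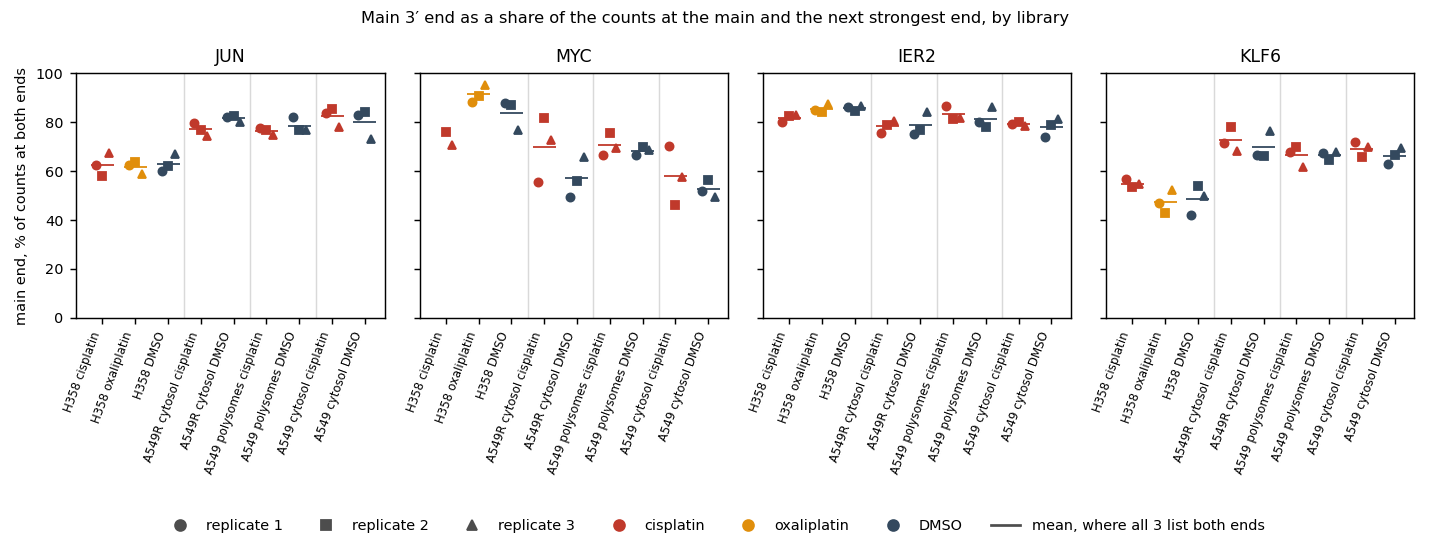
Share of the main end in the counts at the main and the next strongest end of JUN, MYC, IER2 and KLF6, in percent, in every library that lists both ends; marker shape gives the replicate, colour the treatment and lines the mean of 3. The main end of MYC takes more of the counts on polysomes than in A549 cytosol with DMSO, and that of KLF6 takes less in H358 than in A549 and A549R.

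The 7 genes were set beside 40 other early response genes in 4 role groups, of which 39 had an end. In H358 with cisplatin 6 of the 30 measured rose and 4 fell, with a median log2 change of 0.10, against -0.04 over all measured peaks, of which 11.8% were called higher and 14.4% lower. FOS, the classical partner of JUN in AP-1, stood at 44.1, 77.5 and 50.7 CPM with cisplatin, 4.51, 4.18 and 5.25 CPM with oxaliplatin, and 3.82, 2.37 and 2.83 CPM with DMSO, and rose with cisplatin by 4.10 ± 0.35 (edgeR, adjusted p = 3.14e-08). HBEGF, a growth factor of the EGF family, rose by 3.89 ± 0.38 (adjusted p = 1.87e-07), and MAFF, a small MAF factor, by 3.23 ± 0.37 (adjusted p = 1.43e-06). JUND, the AP-1 subunit that is usually present before a stimulus, went the other way, at 45.4, 40.8 and 38.4 CPM with cisplatin, 99.8, 77.2 and 90.8 CPM with oxaliplatin, and 217.5, 161.0 and 152.1 CPM with DMSO. It fell by 2.21 ± 0.24 with cisplatin (adjusted p = 9.25e-07) and by 1.04 ± 0.23 with oxaliplatin (adjusted p = 0.00901), the second call being lost without DMSO library 1 (adjusted p = 0.0815). ID1 and ID3, inhibitors of basic helix-loop-helix factors, fell with cisplatin by 2.77 ± 0.26 (adjusted p = 1.27e-07) and 2.01 ± 0.27 (adjusted p = 1.37e-05).

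By role, 2 of the 5 measured AP-1 partners rose and 1 fell with cisplatin in H358, 0 of 8 other transcription regulators rose and 3 fell, 2 of 8 feedback and decay genes rose, and 2 of 9 secreted, survival and other genes rose. With oxaliplatin 2 of 30 rose and 4 fell, where 1.27% of all measured peaks were called higher and 4.05% lower. DUSP5, a phosphatase that turns off ERK, rose by 1.104 ± 0.32 (edgeR, adjusted p = 0.0433) and SERTAD1, a cell cycle regulator, by 1.05 ± 0.23 (adjusted p = 0.00972), and both calls were lost without oxaliplatin library 3 (adjusted p = 0.226 for DUSP5 and 0.077 for SERTAD1). That of DUSP5 was also lost without oxaliplatin library 1, cisplatin library 2 or DMSO library 2 or 3, and both were lost in the wider fit (adjusted p = 0.41 and 0.212) and without a count minimum (0.297 and 0.199). SRF, the factor that binds CArG boxes, fell by 1.15 ± 0.29 (adjusted p = 0.024), a call lost without DMSO library 1 or without oxaliplatin library 2 or 3, with adjusted p of 0.0564 to 0.127, or with library totals as the scale (-1.09, adjusted p = 0.052). ID1 fell by 1.05 ± 0.24 with oxaliplatin (adjusted p = 0.0132), a call lost without the same libraries, with adjusted p of 0.062 to 0.0826. Set directly against oxaliplatin, cisplatin gave higher FOS (3.53 ± 0.34, adjusted p = 1.49e-07), HBEGF (2.98 ± 0.35, adjusted p = 2.71e-06) and MAFF (2.42 ± 0.35, adjusted p = 4.06e-05), and lower ID1 (-1.72 ± 0.25, adjusted p = 5.02e-05), ID3 (-1.58 ± 0.27, adjusted p = 0.000268) and JUND (-1.17 ± 0.24, adjusted p = 0.0015). In all, 4 of 30 genes were higher and 4 lower, where 9.74% and 9.44% of all measured peaks were.

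The largest called rises in A549 and A549R were those of BTG2, SERTAD1 and IRF1. SERTAD1 was also called higher in H358 with oxaliplatin, and ID1, lower in A549, was also called lower in H358 with each compound. BTG2, an antiproliferative gene that p53 induces, stood at 54.0, 82.0 and 23.4 CPM with cisplatin in A549R, against 1.87, 4.84 and 4.71 CPM with DMSO, and at 43.1, 44.0 and 59.5 CPM with cisplatin in A549, against 3.41, 4.84 and 3.18 CPM with DMSO. BTG2 rose by 3.95 ± 0.47 in A549R (edgeR, adjusted p = 0.000558) and by 3.71 ± 0.44 in A549 (adjusted p = 0.000476). SERTAD1 rose by 2.56 ± 0.40 in A549R (adjusted p = 0.00319) and by 2.99 ± 0.40 in A549 (adjusted p = 0.00108), and IRF1, an interferon response factor, by 2.169 ± 0.49 (adjusted p = 0.0226) and 2.06 ± 0.46 (adjusted p = 0.0152). In A549R 5 of 28 measured genes rose and 1 fell, CCNL1 with -1.17 ± 0.29 (adjusted p = 0.0343), where 2.45% of all measured peaks were called higher and 2.1% lower. In A549 7 of 28 rose and 2 fell, KLF10 with -1.42 ± 0.30 (adjusted p = 0.012) and ID1 with -1.17 ± 0.29 (adjusted p = 0.0271), where 3.29% of all measured peaks were called higher and 3.94% lower. Leaving out single libraries ended the IRF1, CCNL1, KLF10 and ID1 calls in at least 1 case each, and the BTG2 and SERTAD1 calls in A549R and A549 in none. In the wider fit, the IRF1, CCNL1, KLF10 and ID1 calls were lost as well, with adjusted p of 0.0886 to 0.164, and that of CCNL1 also without a count minimum (0.162). On polysomes 1 of 30 rose and 0 fell, where 0.422% of all measured peaks were called higher and 0.283% lower. The gene was BTG2 with 3.54 ± 0.41 (adjusted p = 0.00866), a call lost without DMSO library 1 (adjusted p = 0.0548) or 2 (adjusted p = 0.078), in the wider fit (adjusted p = 1), which called 0 peaks on polysomes, and without a count minimum (adjusted p = 0.649).

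Between polysomes and cytosol, 1 of 29 genes was higher on polysomes and 5 lower with DMSO, and 2 were higher and 4 lower with cisplatin. Over all measured peaks 19.9% were higher and 19.8% lower with DMSO, and 21% were higher and 22.3% lower with cisplatin. MCL1, a survival gene of the BCL2 family, was higher on polysomes by 0.73 ± 0.16 with DMSO (edgeR, adjusted p = 0.0025) and by 0.70 ± 0.16 with cisplatin (adjusted p = 0.00299), and both calls were lost without a count minimum (adjusted p = 0.153 and 0.0692). IER5 was higher with cisplatin (0.74 ± 0.28, adjusted p = 0.0457), a call lost in 6 of the 12 leave-outs, without polysome libraries 3, in the wider fit and without a count minimum, with adjusted p of up to 0.328. ID3 was lower by -1.13 ± 0.19 with DMSO (adjusted p = 0.000493) and by -0.77 ± 0.19 with cisplatin (adjusted p = 0.00544), the second call being lost with library totals as the scale (0.0529), in the wider fit (0.106) and without a count minimum (0.286). IER3 was lower by a log2 difference of -1.22 ± 0.20 with DMSO (adjusted p = 0.000473) and -1.24 ± 0.20 with cisplatin (adjusted p = 0.000392), and PPP1R15A, which restarts translation after stress, by -1.05 ± 0.39 (adjusted p = 0.0434) and -1.18 ± 0.37 (adjusted p = 0.0208). The PPP1R15A calls were lost in 7 of the 12 leave-outs with DMSO and in 3 with cisplatin, and in both treatments with library totals as the scale, in the wider fit and without a count minimum (adjusted p of 0.0589 to 0.344). None of the 28 genes measured in cytosol was called in A549R against A549. In the cisplatin response of H358 against A549, 1 of 27 genes was higher and 3 lower, where 2.9% of 12260 peaks were higher and 2.28% lower. KLF10 was higher by 1.72 ± 0.43 (adjusted p = 0.027), and JUND (-2.04 ± 0.32, adjusted p = 0.00102), IRF1 (-2.0 ± 0.52, adjusted p = 0.0299) and ID1 (-1.44 ± 0.34, adjusted p = 0.0192) were lower. Single libraries decided the KLF10, IRF1 and ID1 calls, with adjusted p of up to 0.0671, 0.091 and 0.0609 when 1 was left out, and the JUND call was kept in each case. The KLF10 call was also lost with library totals as the scale, in the wider fit and without a count minimum (adjusted p up to 0.293), and that of IRF1 in the wider fit (0.0606).

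**Figure D5:**
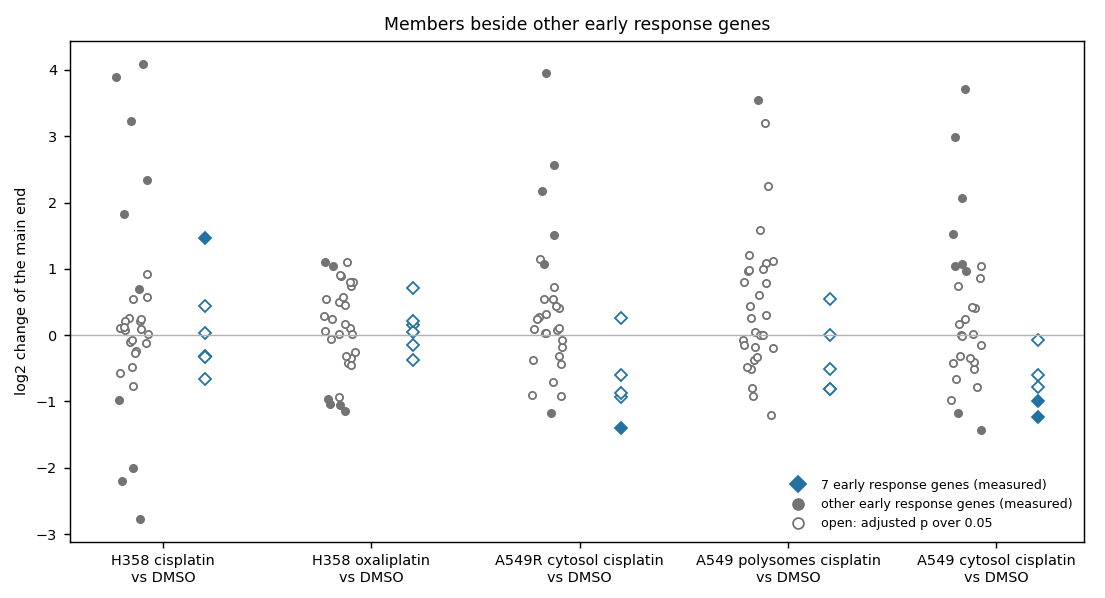
Log2 change of the main end with cisplatin or oxaliplatin against DMSO for the measured genes of the set (blue diamonds) and the measured genes of the list of other early response genes (grey circles); filled symbols have an adjusted p of at most 0.05. The other genes spread between -2.77 and 4.10 with cisplatin in H358. In A549R and A549 cytosol the 5 measured genes of the set lie at or below 0.2535, and on A549 polysomes JUNB lies at 0.54. The ATF3 main end is measured in none of these comparisons and that of EGR1 in H358 alone, so their other points are missing.

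The order of levels over the 9 groups showed which genes kept their ranks. JUNB was highest in the 3 H358 groups, at group means of 135.7 CPM with oxaliplatin, 127.0 CPM with DMSO and 111.3 CPM with cisplatin, whose ranges overlap, and the next group, cisplatin polysomes at 45.9 CPM, did not overlap with them. MYC was highest on DMSO polysomes at 45.2 ± 3.66 CPM, above the next group without overlap, and lowest in cisplatin cytosol, at 10.7 ± 2.31 CPM in A549 and 10.6 ± 1.28 CPM in A549R (SD, n = 3 each), whose ranges overlap. KLF6 was highest in DMSO cytosol of A549, at 88.1 ± 24.7 CPM, and the means of its 6 A549 and A549R groups lay above those of the 3 H358 groups, although cisplatin polysome library 3, at 18.4 CPM, lay within the range of H358 DMSO. JUN and IER2 had no pair of neighbouring groups without overlap. ATF3 was highest in H358 with cisplatin at 43.8 ± 11.7 CPM, which did not overlap with the next group, oxaliplatin in H358 at 16.7 ± 9.31 CPM. Among the 21 other early response genes whose main end all 27 libraries list, the closest in pattern over the 9 group means were DUSP6 for JUNB (Spearman 0.87), ID3 for KLF6 (0.82), CEBPB for MYC (0.72), KLF10 for IER2 (0.70) and ZFP36L2 for JUN (0.52). The groups share DMSO controls, lines and lists, so these values describe likeness over 9 points and no test was made.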

How the data were processed

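The deposited files are one peak list per library, and the authors' value used here is the count of reads per called 3′-end peak, not normalized. Libraries were made, per the labels, from fragmented poly(A)+ RNA primed with anchored oligo-dT. Bowtie2 2.2.5, SAMtools 1.1 and bedtools 2.17.0 are named in the submitters' processing notes, with no role. Those notes also name a mouse build, while the positions in the lists fit human hg19, which is used here. How peaks were called and filtered is not given in the sources used here, and reads were not counted as unique molecules.

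Peaks that overlap on a strand were merged over the 27 libraries with pandas 2.3.3, giving 233020 regions. A peak is measured in a comparison when every library of the fit lists it, so the main tests never read absence from a short list as 0. The wider fit and the fit without a count minimum do read it as 0, as does the mean that picks a main end. The main tests were edgeR 4.0.16 quasi-likelihood fits in R 4.3.3 with TMM scaling, on the counts as deposited, with Benjamini-Hochberg adjustment over all measured peaks and a threshold of 0.05. The fits held 9 libraries of H358, 12 of A549 and A549R cytosol, 6 of polysomes and 12 of polysomes with A549 cytosol, with 3 replicates per group. End shares were compared with exact permutation tests (scipy 1.17.1). The labels do not say that replicates were separate cultures, so p-values measure the spread between these samples, which may be technical. Alternatives were DESeq2 1.42.0, other scalings, other peak sets, the sum of a window's ends, the replicate number as a block, and leaving out libraries. On simulated counts, edgeR recovered 29% to 51% of peaks changed by 1 on the log2 scale and 93% to 96% of those changed by 2. Every simulated peak had the same spread (a dispersion of 0.05) and no library stood apart, so recovery in more variable peaks is not given by it. False calls made up 6.71% of the calls for polysomes with A549 cytosol and 7.01% for H358 with A549.

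The genes, the list of other early response genes and the comparisons were chosen with earlier results of these data known. All 7 genes are named, with other ends that hold at least 5% of a gene's counts, and of the other early response genes the 3 called with the largest change in each direction per comparison. In the check of pairing, same-numbered libraries deviated together, with every correlation over 0.1, for H358 oxaliplatin against DMSO, cisplatin against DMSO in A549, A549R and polysomes, A549R against A549 with DMSO, and polysomes against cytosol in both treatments. They did not for H358 cisplatin against DMSO, cisplatin against oxaliplatin, or A549R against A549 with cisplatin.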

Additional observations from a re-analysis of the deposited data

Results flagged for a closer look

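The cisplatin response of JUN differed between H358 whole cells and A549 cytosol. The log2 response was 2.23 higher in H358 than in A549, by a test of the difference itself in edgeR (adjusted p = 0.0209, n = 3 per group). This comparison was added after the values had been seen. The call was kept in 8 of the 12 leave-outs (adjusted p up to 0.0629) and was lost in the wider fit (1.69, adjusted p = 0.229). JUN was higher with cisplatin in 3 of 3 same-numbered H358 pairs, and lower in 2 of 3 A549 pairs. The RNA fraction and the line cannot be told apart in this comparison.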

How the results depend on the processing

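Of 2786 changes recomputed under an alternative, 2526 kept their direction and their side of the threshold, 139 lost the threshold, 46 passed it and 75 changed sign, all of the last among changes that were not called. The cause of each shift was not tested. Counts of main ends called, which were 1 for H358 cisplatin against DMSO, became 2 with library totals as the scale and 3 in the wider fit (peaks averaging 5 or more reads, with ends not listed as 0), over all peaks with no count minimum, and with the sum of a window's ends. Of all peaks, 18.7% were called in the wider fit and 11.6% with no minimum. The last 3 settings also test ATF3, which the main fit does not hold, and each called it. Shares of all peaks were not computed for library totals, the sum, the replicate block or leave-outs. For oxaliplatin against DMSO the count of 0 became 3 in the wider fit, and 1 with no minimum and with the sum. In each of these settings ATF3 was called, an end newly tested there. Of all peaks, 47% were called in the wider fit and 21.2% with no minimum. For cisplatin against oxaliplatin the count of 1 became 2 with library totals, with no minimum and with the sum. With no minimum and with the sum ATF3 was called, and 26.4% of all peaks were called with no minimum. For A549 cisplatin against DMSO the count of 2 became 1 in the wider fit, 3 without libraries 3 of all cytosol groups and 4 with no minimum, and ran from 0 to 3 when each library was left out. The 4 include ATF3 and EGR1, which the main fit does not hold. Of all peaks, 0.57% were called in the wider fit and 2% with no minimum. For A549R the count of 1 became 2 with DESeq2, with the replicate block and without libraries 3 of all cytosol groups, and 4 with no minimum, and ran from 1 to 2 when each library was left out. Here too the 4 include ATF3 and EGR1. DESeq2 called 7.25% of the measured peaks, and 1.95% of all peaks were called with no minimum. For the difference of response between A549R and A549, and for A549R against A549 with either treatment, the count of 0 became 1 with no minimum, and for DMSO also 1 without libraries 3. With no minimum the end called was that of EGR1, which the main fit does not hold. Of all peaks, 0.617% were then called for the difference of response and 24.9% with either treatment. On polysomes the count of 0 became 2 with the replicate block and 1 without libraries 3. For polysomes against cytosol with DMSO the count of 1 became 0 in the wider fit, with no minimum, with the sum and without polysome libraries 3, and 2 with the replicate block, and ran from 0 to 1 when each library was left out. Of all peaks, 6.42% were called in the wider fit and 10.7% with no minimum. With cisplatin the count of 1 became 0 with no minimum, where 10.5% of all peaks were called, and 2 with the replicate block, and ran from 1 to 2. For H358 against A549 the count of 1 became 0 in the wider fit, and 2 with no minimum and with the sum, and ran from 0 to 2. EGR1, newly tested, was called with no minimum. Of all peaks, 3.31% were called in the wider fit and 1.86% with no minimum. The block changed no other count. Signs changed as follows, in log2 changes of main ends. For H358 cisplatin against DMSO, EGR1 was -0.055 in the wider fit and -0.13 with no minimum, and IER2 was -0.28 with library totals, -0.45 in the wider fit and -0.52 with no minimum. For oxaliplatin the values in the wider fit and with no minimum were -0.54 and -0.33 for JUN, -0.66 and -0.46 for JUNB, and -0.49 and -0.28 for MYC. For cisplatin against oxaliplatin EGR1 was 0.16 with the sum and IER2 was -0.19 with library totals. MYC without libraries 3 was 0.17 for the A549R and A549 difference of response, -0.12 for A549R against A549 with DMSO and 0.053 with cisplatin, where it was 0.0082 with library totals. On polysomes JUN was -0.011 for peaks averaging 20 or more reads and -0.38 without libraries 3, and for H358 against A549 KLF6 was -0.033 in the wider fit. For other ends, the upstream IER2 end was -0.070 with no minimum for H358 cisplatin, the downstream JUN end was -0.47 in the wider fit and -0.26 with no minimum for oxaliplatin, and -0.21 without libraries 3 on polysomes. Leaving out each library gave ranges that cross 0. In H358 they were -0.15 to 0.22 for IER2 with cisplatin, and with oxaliplatin -0.026 to 0.35 for JUN, -0.088 to 0.27 for JUNB, -0.087 to 0.41 for MYC and -0.34 to 0.041 for IER2, and -0.48 to 0.085 for EGR1 between the compounds. They were -0.27 to 0.17 for JUNB in A549 and -1.64 to 0.11 for JUN in A549R. For the difference of response between those lines they were -1.03 to 0.71 for JUN, -0.061 to 0.44 for IER2 and -0.12 to 0.31 for KLF6. For A549R against A549 they were -1.15 to 0.33 for JUN and -0.015 to 0.25 for MYC with DMSO, and -0.095 to 0.24 for JUNB and -0.17 to 0.11 for MYC with cisplatin. On polysomes they were -0.25 to 0.20 for JUN and -0.14 to 0.88 for JUNB. For polysomes against cytosol they were -0.054 to 0.39 for JUN with cisplatin, and for the difference of response -0.072 to 0.97 for JUNB, -0.032 to 0.48 for IER2 and -0.11 to 0.46 for KLF6. For H358 against A549 the range was -0.33 to 0.15 for JUNB. At other ends the ranges were -1.28 to 0.28 for the middle EGR1 end and -0.27 to 0.011 for the upstream IER2 end with oxaliplatin, -1.32 to 0.43 for the downstream JUN end in A549R, and -0.022 to 0.42 for the upstream MYC end on polysomes against cytosol with cisplatin. Library totals moved the median of all peaks by -0.368 for H358 cisplatin against DMSO. The listing minimum of 5 counts limits ATF3 and EGR1. Over all measured peaks edgeR and DESeq2 called 747 and 1192 for cisplatin in A549R, 152 and 730 on polysomes, and 345 and 667 with DMSO and 270 and 518 with cisplatin for A549R against A549.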
